A study of Homo sapiens with 18 samples.

Results

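Eph receptors are a family of cell-surface tyrosine kinases, and 10 of their genes are described here in the RNA of HAP1 cells, out of 20329 genes counted and 14 Eph receptor genes among them. They are EPHA2, EPHA3, EPHA4, EPHA5, EPHA7, EPHB1, EPHB2, EPHB3, EPHB4 and EPHB6. The members were chosen by family name with their measured levels in these same libraries known, and EPHA3 and EPHA5 were singled out for their levels over the groups. The levels and fold changes of EPHA3 and EPHA5 are therefore a description with no test. The other 8 receptors, the 4 remaining receptor genes EPHA1, EPHA6, EPHA8 and EPHA10, the ephrins and the signalling genes are given with the test of the whole table. All 10 members passed the filter on low counts in every comparison.

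The 18 libraries form 6 groups of 3 replicates. HAP1 is a near-haploid human line that descends from a chronic myeloid leukaemia line, grows attached and has impaired p53 function, and every group carries that background. Set A holds control A (untreated HAP1), ΔWAPL clone 3.3 (labelled WaplKO_3.3, a Blasticidin cassette inserted in WAPL with CRISPR), SCC4KO (a Puromycin cassette inserted in SCC4) and DKO_3.3, in which SCC4 was knocked out in ΔWAPL cells of clone 3.3. Set B holds control B, again HAP1, and ΔWAPL clone 1.14 (WaplKO_1.14). WAPL releases cohesin from DNA, and SCC4, whose gene symbol is MAU2, is part of the complex that loads cohesin. Each knockout is a single clone, so its genotype and the history of that clone cannot be told apart. The labels do not say whether replicates came from separate cultures, and p-values then measure only the spread between these samples, which may be technical.

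The targeted genes followed the labels. MAU2 lay between 0.505 and 1.05 CPM (normalised counts per 1000000 reads) in the 6 SCC4KO and DKO libraries and between 52.0 and 72.7 CPM in the other libraries. WAPL lay between 38.1 and 50.3 CPM in the 9 libraries that carry the WAPL cassette and between 67.8 and 131.1 CPM elsewhere, so reads of that gene remained. Reads on genes ranged from 10007646 to 20711127 per library. Of 8 haematopoietic marker genes, 6 stayed under 1 CPM in the mean of every group, PTPRC, SPI1 and GATA1 among them, while TAL1 and KIT were detected. The summed level of these 8 genes was 90.6 to 93.0 CPM in control A, 81.3 to 94.4 in clone 3.3, 14.2 to 19.3 in SCC4KO, 90.3 to 91.3 in DKO, 75.5 to 78.6 in control B and 23.4 to 25.6 in clone 1.14. TAL1 lay at 73.0 CPM in control A and 4.37 CPM in SCC4KO. The summed level of 4 epithelial markers was 107.6 to 130.9 CPM in DKO and 57.9 to 81.8 CPM in control A, with KRT8 at a mean of 48.6 and 8.15 CPM, EPCAM at 0.658 and 1.17 CPM and CDH1 at 0 and 0.0846 CPM. The sum of 5 mesenchymal markers, mostly VIM, was 266 to 306.4 CPM in DKO and 523.5 to 668.3 CPM in control A. COL1A1, another of the 5, went the other way, with a mean of 29.4 CPM in DKO and 13.3 CPM in control A. The summed level of 6 neural markers, mostly SOX2 and NES, was 759.3 to 780.3 CPM in DKO and 665.6 to 734.9 CPM in control A. That sum was 779.1 to 847 CPM in control B, so DKO did not lie above both control groups. It was 747.4 to 903.1 CPM in SCC4KO, 787.3 to 829 in clone 1.14 and 571.6 to 674.6 in clone 3.3. Among the 6, MAP2 went the other way, at 2.78 CPM in DKO and 18.3 CPM in control A. The means of SYP (6.83 and 9.70 CPM), TUBB3 (1.72 and 1.85 CPM) and RBFOX3 (0.0773 and 0.0828 CPM) were also lower in DKO, with overlapping libraries. The part of these shifts in the receptor levels was not tested, and in bulk RNA fewer cells of a kind and less RNA per cell cannot be told apart.

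An Eph receptor binds an ephrin on a neighbouring cell, and contact sends signals into both cells: forward through the receptor's kinase and reverse through the ephrin. EphA receptors mostly bind the lipid-anchored ephrin-As and EphB receptors mostly bind the transmembrane ephrin-Bs, with EPHA4 able to bind both kinds. The family is known for guiding axons, sorting cells at tissue boundaries and shaping blood vessels, and EPHB6 is a member whose kinase is inactive.

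Several of the receptor genes are long and lie far from other genes, so the start region of the 4 EphA genes with the widest swings between groups is shown first. These are 300-base windows of GRCh37 (the same assembly as hg19), from 250 bases before to 50 bases after the annotated start, 5′ to 3′ on the gene's strand. EPHA3 is chr3:89156521-89156820 on the plus strand, EPHA5 is chr4:66536158-66536457 on the minus strand, EPHA6 is chr3:96533188-96533487 on the plus strand and EPHA7 is chr6:94129228-94129527 on the minus strand. Capitals mark matches on either strand to GGGCGG (the GC box bound by SP factors, CCGCCC on the other strand) or to GGNGGCAG (part of the CTCF core, CTGCCNCC on the other strand).
EPHA3: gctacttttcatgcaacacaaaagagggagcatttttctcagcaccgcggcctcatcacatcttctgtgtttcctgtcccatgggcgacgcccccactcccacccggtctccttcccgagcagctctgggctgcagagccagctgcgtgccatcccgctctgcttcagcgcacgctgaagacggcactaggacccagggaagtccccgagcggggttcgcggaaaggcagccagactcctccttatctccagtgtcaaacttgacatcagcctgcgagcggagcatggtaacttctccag
EPHA5: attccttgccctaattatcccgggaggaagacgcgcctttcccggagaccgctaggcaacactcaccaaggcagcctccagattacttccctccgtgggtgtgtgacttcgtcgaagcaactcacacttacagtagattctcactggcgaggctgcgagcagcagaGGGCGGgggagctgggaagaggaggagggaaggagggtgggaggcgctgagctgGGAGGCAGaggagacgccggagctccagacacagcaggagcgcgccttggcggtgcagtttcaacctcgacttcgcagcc
EPHA6: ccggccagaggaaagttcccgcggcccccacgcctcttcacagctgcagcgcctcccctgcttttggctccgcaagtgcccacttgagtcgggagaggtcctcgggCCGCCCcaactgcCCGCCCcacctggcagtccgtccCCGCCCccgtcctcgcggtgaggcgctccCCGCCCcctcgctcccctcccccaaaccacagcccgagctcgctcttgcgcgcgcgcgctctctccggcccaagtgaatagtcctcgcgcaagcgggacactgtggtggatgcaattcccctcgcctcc
EPHA7: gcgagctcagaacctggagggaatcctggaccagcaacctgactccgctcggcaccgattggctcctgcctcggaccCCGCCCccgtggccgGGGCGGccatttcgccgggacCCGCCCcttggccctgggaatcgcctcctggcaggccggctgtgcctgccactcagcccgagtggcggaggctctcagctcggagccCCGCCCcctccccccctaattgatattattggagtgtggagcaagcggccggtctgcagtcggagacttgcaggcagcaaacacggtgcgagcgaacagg
The EPHA3 window held no match to either motif and none to TATAAA, EPHA5 held 1 GC box and 1 match to the CTCF part, and EPHA6 and EPHA7 held 4 GC boxes each. Of 19637 promoter windows of this length, 61.3% held a GC box, 9.51% held TATAAA or its reverse and 19.6% held the CTCF part. The GC content was 59.7% for EPHA3, 61.7% for EPHA5, 71.0% for EPHA6 and 68.3% for EPHA7, beside a median of 63.7% over all windows. A match is a string of letters and says nothing of binding, nor does its absence.

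EPHA3, a receptor for ephrin-As that is high in embryonic and some leukaemic cells, was abundant in control cells, lower in both ΔWAPL clones, highest in SCC4KO and close to absent in DKO. Its 17 exons lie on chromosome 3 from 89156771 to 89531284, plus strand. Control A held 31.2, 38.3 and 40.0 CPM in replicates 1 to 3, and control B held 35.02, 24.8 and 39.5 CPM. Clone 3.3 held 11.1, 12.7 and 9.22 CPM, and clone 1.14 held 14.8, 17.6 and 15.3 CPM. SCC4KO held 48.1, 59.6 and 57.6 CPM. The DKO libraries held 0.797, 0.923 and 0.738 CPM, which is 13 to 15 reads each. The order of the group means was SCC4KO, control A, control B, clone 1.14, clone 3.3 and DKO, and only the 2 control groups overlapped with their neighbour in that order. The log2 fold change was -1.74 (SE 0.168) in clone 3.3 against control A, -1.07 (SE 0.169) in clone 1.14 against control B, and 0.59 (SE 0.149) in SCC4KO against control A. DKO lay -5.47 (SE 0.185) from control A and -3.74 (SE 0.209) from clone 3.3, its parent clone, on the log2 scale. The summed reads of DKO and clone 3.3 were 42 and 541, a level 13.5-fold lower with a 95% exact counting interval of 9.83 to 18.9, which covers counting error only.

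EPHA5, an ephrin-A receptor best known from the nervous system, was near 1 CPM in every group but SCC4KO. The gene has 17 exons on chromosome 4 from 66185281 to 66536213, minus strand. SCC4KO held 18.1, 23.3 and 16.8 CPM, from 231 to 279 reads a library. Control A held 1.04, 0.681 and 1.13 CPM, and control B held 0.818, 0.470 and 1.58 CPM. Clone 3.3 held 1.90, 1.56 and 1.06 CPM, DKO held 0.797, 0.369 and 0.964 CPM, and clone 1.14 held 0.638, 0.238 and 0.303 CPM. Only SCC4KO stood apart: each of the other 5 groups overlapped with the next in the order of means. The log2 fold change of SCC4KO against control A was 4.33 (SE 0.236), a level 20.1-fold higher. The same SCC4 loss in clone 3.3 gave -1.09 (SE 0.334), DKO against clone 3.3. In the clones the value was 0.66 (SE 0.305) for clone 3.3 and -1.29 (SE 0.548) for clone 1.14, where few reads stand behind each library (4 to 12 in clone 1.14).

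**Figure D1:**
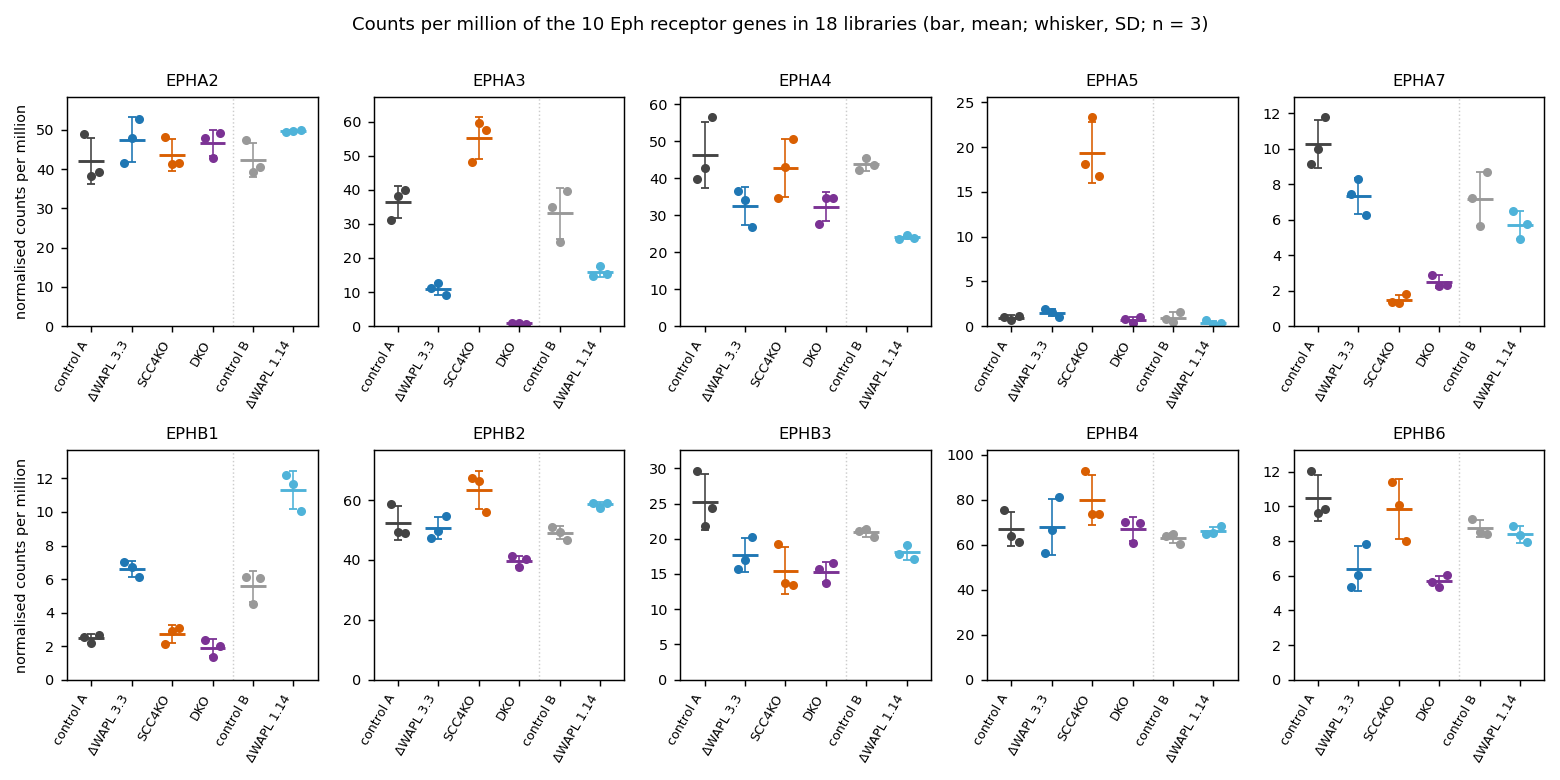
Normalised counts in CPM (y axis, linear, each panel from 0) of the 10 receptor genes in each library. Points are replicates 1 to 3 from left to right, bars are means and whiskers are SD, and the dotted line parts set A from set B. EPHA3 runs from under 1 CPM in DKO to 59.6 CPM in SCC4KO, and EPHA5 lies between 16.8 and 23.3 CPM in SCC4KO and at most at 1.90 CPM elsewhere.

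Among the other EphA members, EPHA7 was lower in both lines without SCC4, EPHA4 was lower in clone 1.14, and EPHA2 did not pass the test in any comparison. The test was edgeR's quasi-likelihood test over all genes with Benjamini-Hochberg adjustment, with the threshold at an adjusted p of 0.05. EPHA7, an ephrin-A receptor of the developing brain on chromosome 6 (93949738 to 94129405), held 9.11, 9.97 and 11.8 CPM in control A. It held 1.36, 1.31 and 1.79 CPM in SCC4KO and 2.90, 2.28 and 2.33 CPM in DKO. Clone 3.3 held 7.44, 8.27 and 6.24 CPM, control B 7.22, 5.64 and 8.66 CPM and clone 1.14 6.48, 4.88 and 5.75 CPM. The SCC4KO and DKO libraries lay below all others and did not overlap with each other. EPHA7 was 6.83-fold lower in SCC4KO than in control A (log2 fold change -2.77, SE 0.209, adjusted p 1.758e-05). It was 2.92-fold lower in DKO than in clone 3.3 (log2 fold change -1.54, SE 0.178, adjusted p 1.681e-05) and 4.11-fold lower than in control A (adjusted p 2.709e-05). The step with SCC4 loss was smaller in clone 3.3 than in control cells, a difference of 1.24 (SE 0.265) on the log2 scale with an adjusted p of 0.006112. This test of the difference of SCC4 loss between clone 3.3 and control cells was added after the data were seen, and 11.3% of all 12817 genes passed it.

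EPHA4, which binds both ephrin classes and is known for axon guidance, held 23.6, 24.5 and 23.8 CPM in clone 1.14 and 42.1, 45.5 and 43.7 CPM in control B. The groups did not overlap, and the fall was 1.84-fold (log2 fold change -0.88, SE 0.063, adjusted p 0.0001111). In clone 3.3 it held 36.5, 34.1 and 26.7 CPM against 39.7, 42.8 and 56.4 CPM in control A, all lower but not past the threshold (log2 fold change -0.53, adjusted p 0.07449). DKO had 27.7, 34.6 and 34.6 CPM (log2 fold change -0.52 against control A, adjusted p 0.08373). Without replicate 1 of control A the adjusted p was 0.01328 for clone 3.3 and 0.005646 for DKO. With 1 fit over all samples it was 0.03017 for clone 3.3 and 0.03105 for DKO, and with DESeq2 it was 0.03963 for DKO. EPHA2, an ephrin-A1 receptor of epithelial cells, lay between 38.4 and 52.9 CPM over all 18 libraries, and the 6 groups overlapped one after the other. The largest difference of EPHA2 was in clone 1.14, at 0.22 (SE 0.081, adjusted p 0.09664). There each library (49.57 to 49.95 CPM) lay above every library of control B (39.16 to 47.35 CPM). Without replicate 1 of control B the log2 fold change was 0.33 with an adjusted p of 0.03022.

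Among the EphB members, EPHB1 was higher in both ΔWAPL clones and overlapped with control A in DKO, EPHB3 was lower in SCC4KO and DKO than in control A, EPHB6 was lower in clone 3.3 and DKO, and EPHB4 did not pass the test without a replicate block. EPHB1, an ephrin-B receptor of growing axons on chromosome 3 (134514102 to 134979309), held 2.54, 2.17 and 2.68 CPM in control A and 6.99, 6.72 and 6.11 CPM in clone 3.3. Control B held 6.13, 4.50 and 6.08 CPM and clone 1.14 held 12.2, 11.7 and 10.1 CPM. SCC4KO held 2.14, 2.93 and 3.10 CPM and DKO 2.39, 1.35 and 1.99 CPM. Each clone lay above its own controls, but clone 3.3 overlapped with control B. EPHB1 rose 2.65-fold in clone 3.3 (log2 fold change 1.40, SE 0.188, adjusted p 0.0001264) and 2.01-fold in clone 1.14 (log2 fold change 1.01, SE 0.137, adjusted p 0.002367). It fell 3.44-fold from clone 3.3 to DKO (log2 fold change -1.78, SE 0.196, adjusted p 1.016e-05), whereas SCC4KO differed from control A by 0.13 (SE 0.221, adjusted p 0.7732). The difference of these 2 steps was -1.90 (SE 0.294, adjusted p 0.0004569).

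The controls of the sets themselves differed in EPHB1. Control B lay above control A in each of its 3 libraries (log2 fold change 1.17, SE 0.183, adjusted p 0.02753), in a comparison that called only 80 of 12509 genes, or 0.64%. That call was lost, with adjusted p-values of 0.05492 to 0.2217, without replicate 1 or 2 of control A or replicate 1 or 3 of control B. None of the other 7 receptors passed in that comparison by edgeR. EPHA7 stood at -0.52 with an unadjusted p of 0.01499.

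EPHB2, a receptor for ephrin-Bs in neurons and intestinal crypts, held 57.5 to 59.2 CPM in clone 1.14 and 46.8 to 51.03 CPM in control B. It was 1.18-fold higher there (log2 fold change 0.24, SE 0.06, adjusted p 0.02773), and without replicate 1 or 3 of clone 1.14 the adjusted p was 0.1045 or 0.1032. The call was also lost with DESeq2 (adjusted p 0.05468) and with 1 fit over all samples (0.1136). DKO held 41.2, 37.8 and 40.2 CPM, below every other library (log2 fold change -0.41 against control A, adjusted p 0.09147, and -0.35 against clone 3.3, adjusted p 0.07425). Both DKO comparisons passed with 1 fit over all samples (adjusted p 0.01127 and 0.02671). SCC4KO held 67.4, 66.5 and 55.9 CPM. The difference of SCC4 loss between clone 3.3 and control cells was -0.61 (SE 0.171, adjusted p 0.03079). It rose to between 0.05673 and 0.08738 without any of 9 of the 12 libraries, and to 0.05021 under a replicate block.

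EPHB3, another ephrin-B receptor of the intestinal crypt, held 29.6, 21.8 and 24.4 CPM in control A, 19.3, 13.7 and 13.4 CPM in SCC4KO and 15.7, 13.8 and 16.5 CPM in DKO. It fell 1.65-fold in DKO (log2 fold change -0.73, SE 0.154, adjusted p 0.01492) and 1.63-fold in SCC4KO (log2 fold change -0.71, SE 0.191, adjusted p 0.04325). Both groups lay below control A in every library. Clone 3.3, at 15.7, 17.0 and 20.3 CPM, lay below control A as well, without passing the threshold (log2 fold change -0.54, adjusted p 0.08393, and 0.02091 with 1 fit over all samples). DKO overlapped with clone 3.3, its parent (-0.20, adjusted p 0.4303). In set B, EPHB3 held 20.2 to 21.4 CPM in the controls and 17.2 to 19.2 CPM in clone 1.14 (-0.22, adjusted p 0.08002). The DKO call was lost without replicate 1 of DKO (adjusted p 0.07989). The SCC4KO call was lost without replicate 2 of control A or replicate 2 or 3 of SCC4KO (adjusted p 0.07225 to 0.1725), and with at least 10 counts asked of every sample (0.05552). The kinase-inactive EPHB6 held 12.03, 9.59 and 9.84 CPM in control A, 5.34, 6.01 and 7.83 CPM in clone 3.3 and 5.64, 5.35 and 6.01 CPM in DKO. It fell 1.67-fold in clone 3.3 (log2 fold change -0.74, SE 0.194, adjusted p 0.02764) and 1.86-fold in DKO (log2 fold change -0.89, SE 0.152, adjusted p 0.003889). In clone 1.14 it differed from control B by -0.07 (SE 0.088, adjusted p 0.6606). The call in clone 3.3 was lost without replicate 2 of control A or replicate 1 or 2 of clone 3.3 (adjusted p 0.05166 to 0.1301). EPHB4, the ephrin-B2 receptor of veins, lay between 56.3 and 92.8 CPM in all libraries. Its log2 fold changes ran from -0.02 to 0.26 in the 5 comparisons of knockouts and stood at -0.095 in control B against control A, and none passed the threshold.

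Counted over the 8 tested receptors, 1 rose and 1 fell in clone 3.3, where 8.07% of 12489 genes passed. In clone 1.14, 2 rose and 1 fell beside 20.1% of 12636 genes. In SCC4KO 2 fell beside 9.49% of 12503 genes, in DKO against control A 3 fell beside 7.95% of 12594 genes, and in DKO against clone 3.3 2 fell beside 10.6% of 12544 genes. The median log2 fold change of the 8 was -0.29, 0.00, -0.02, -0.46 and -0.18 in these 5 comparisons, beside -0.01 to 0.00 over all genes. In the interaction test of clone 3.3 against clone 1.14, which 2.65% of 12786 genes passed, none of the 8 passed by edgeR or DESeq2, and 1 had an unadjusted p under 0.05. The comparisons of clone 3.3, SCC4KO and DKO share the control A libraries. No label pairs the libraries, but same-numbered SCC4KO and control A libraries deviated together (r = 0.676, 0.116 and 0.615), so pairs were taken from these data. In a fit blocked by that number 4 of the 8 passed, beside 5754 of the 12503 genes. EPHB2 and EPHB4 were then also past the threshold, at 0.27 (adjusted p 0.009151) and 0.25 (adjusted p 0.004791) on the log2 scale.

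**Figure D2:**
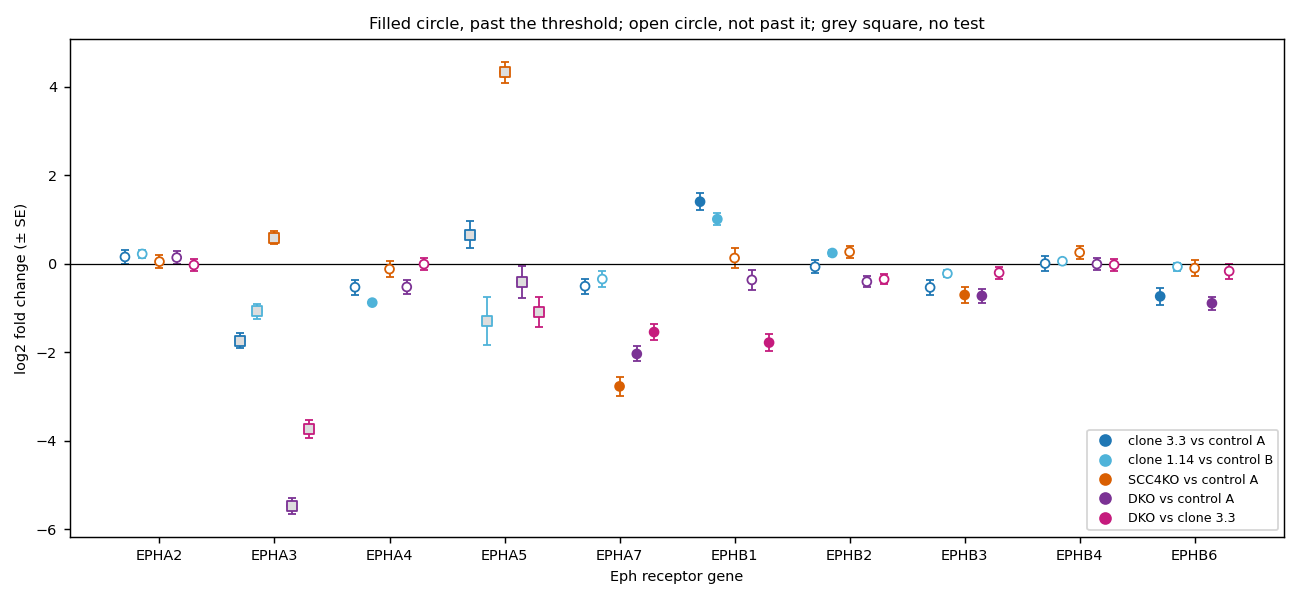
Log2 fold change (y axis) with SE of the 10 receptor genes (x axis) in 5 comparisons. Filled circles passed the threshold, open circles did not, and grey squares are EPHA3 and EPHA5, which were not tested. EPHA3 reaches -5.47 in DKO against control A and EPHA5 reaches 4.33 in SCC4KO.

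Among the 4 remaining receptor genes, EPHA6 was close to absent in DKO, as EPHA3 was. EPHA6, an ephrin-A receptor of neurons on chromosome 3 (96533425 to 97480376, plus strand), held 2.99, 2.23 and 2.86 CPM in control A and 4.69, 4.24 and 4.38 CPM in clone 3.3. The 3 DKO libraries had 3, 1 and 4 reads, or 0.171, 0.0615 and 0.227 CPM. SCC4KO held 3.24, 4.24 and 4.68 CPM, control B 3.41, 3.56 and 4.33 CPM and clone 1.14 4.99, 4.11 and 5.39 CPM. From 8 summed reads against 220, the DKO level was 28.7-fold lower than in clone 3.3 (95% exact counting interval 14.3 to 67.4, adjusted p of the edgeR test 2.597e-08), and 17.3-fold lower than in control A (interval 8.53 to 41.0, adjusted p 3.977e-05). The difference of SCC4 loss between clone 3.3 and control cells was -5.34 (SE 0.382, adjusted p 2.644e-07). In clone 3.3 alone the gene was 1.63-fold higher than in control A (adjusted p 0.04002), a call lost without any of 5 of the 6 libraries (adjusted p 0.05684 to 0.2488, all but replicate 1 of control A) and with DESeq2 (0.07566). With the replicate block, EPHA6 was also past the threshold in SCC4KO, at 0.57 (adjusted p 0.0317).

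EPHA8, a receptor of the midbrain, was low throughout but rose in SCC4KO, where it held 43, 18 and 37 reads against 9, 4 and 2 in control A (log2 fold change 2.93, SE 0.413, adjusted p 0.001133). It also rose in clone 3.3, with 19, 17 and 30 reads (log2 fold change 2.08, SE 0.477, adjusted p 0.01147). Clone 1.14 held 6, 11 and 8 reads against 5, 6 and 6 in control B, which overlap and were too few for a test. EPHA8 passed the filter in only 3 pairwise comparisons, each with SCC4KO or clone 3.3, where it was highest. Its adjusted p-values are therefore no independent support for a rise. DKO held 8, 17 and 14 reads, and the difference of SCC4 loss was -3.75 (SE 0.608, adjusted p 0.0007075). EPHA10, whose kinase is inactive, had 1 to 25 reads a library and was higher in DKO than in clone 3.3 (log2 fold change 1.43, SE 0.396, adjusted p 0.02898), a call lost without replicate 2 of clone 3.3 or replicate 1 or 3 of DKO (adjusted p 0.05059 to 0.1644), with DESeq2 (0.07219) and with 1 fit over all samples (0.05017). In SCC4KO it stood at 1.43 (adjusted p 0.1151), or 1.503 with the replicate block (adjusted p 0.01205). EPHA10 passed the filter only in comparisons with SCC4KO or DKO, where it was highest. Its adjusted p-values are likewise no independent support. EPHA1 had 0 to 3 reads in each library and was never tested.

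Compared within a group per kilobase of exon, EPHB4 had the highest level of the 14 receptor genes in all 6 groups, with 15.4 CPM per kb in control A. By the same measure EPHA3 ranked 4 in both controls, 6 in both clones, 3 in SCC4KO and 11 in DKO. EPHA5 ranked 11 in the controls and 8 in SCC4KO. Per kilobase of coding sequence the EPHA3 ranks were 5, 6, 3 and 10 and the EPHA5 ranks 11 and 6, so the place of a gene with long untranslated ends depends on the length used.

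The members with the widest swings were long genes. The 6 long members (EPHA3, EPHA4, EPHA5, EPHA7, EPHB1 and EPHB2) had a median range of 2.6 log2 units between the highest and the lowest group mean, and 4 of them had a range of at least 2. The 4 short ones (EPHA2, EPHB3, EPHB4 and EPHB6) had a median range of 0.52, and 0 of 4 reached 2. Outside the members, the long EPHA6 (947.0 kb) had a range of 4.2. The short EPHA8 (40.1 kb) had 2.62 and EPHA10 (51.3 kb) had 1.47, both from few reads. Over all genes past the filter, 14.6% of 1642 genes of at least 150 kb reached a range of 2, as did 5.03% of 11178 shorter genes. These ranges include EPHA3 and EPHA5, whose levels were part of their choice, and are a description. The receptors also differ in their surroundings. No other counted gene starts within 500 kb of EPHA3, EPHA4, EPHA5, EPHA6 or EPHA7. The nearest start lies 0.96 Mb from EPHA3 (C3orf38), 1.26 Mb from EPHA5 (TECRL), 1.90 Mb from EPHA7 (MANEA), 0.73 Mb from EPHA4 (CCDC140) and 0.95 Mb from EPHA6 (ARL6). For EPHA2 and the 5 EphB members it lies 25.2 to 150.3 kb away.

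EPHA3 and EPHA6 lie 7.38 Mb apart, start to start, on chromosome 3, and 3 tested genes that start between them did not share their loss in DKO. These genes were chosen after the values were seen. They start close together, 4.54 to 4.63 Mb from EPHA3, and most of the stretch held no start of a tested gene. PROS1, which encodes the anticoagulant protein S, had 115 to 174 reads in the DKO libraries and 83 to 123 in control A. DHFR2 had 125 to 173 reads in DKO and 105 to 186 in control A, and NSUN3 had 189 to 273 and 141 to 258. The log2 fold changes of these 3 genes in DKO against control A ran from -0.11 to 0.50, and none passed the threshold (adjusted p 0.2168 to 0.9386). STX19 had 0 or 1 read. Of 28 tested genes within 5 Mb on either side, 1 was higher in DKO than in control A (VGLL3, 1.15, adjusted p 0.01743) and the lowest value was -0.45. In that comparison 7.95% of all genes passed. Against clone 3.3, the parent of DKO, the 3 genes in between ran from -0.11 to 0.14 and none passed (adjusted p 0.7198 to 0.9393). Of the 28 flanking genes 2 were lower there, CADM2 (-0.828, adjusted p 0.01029) and ZNF654 (-0.525, adjusted p 0.02403), beside 10.6% of all genes past the threshold.

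**Figure D3:**
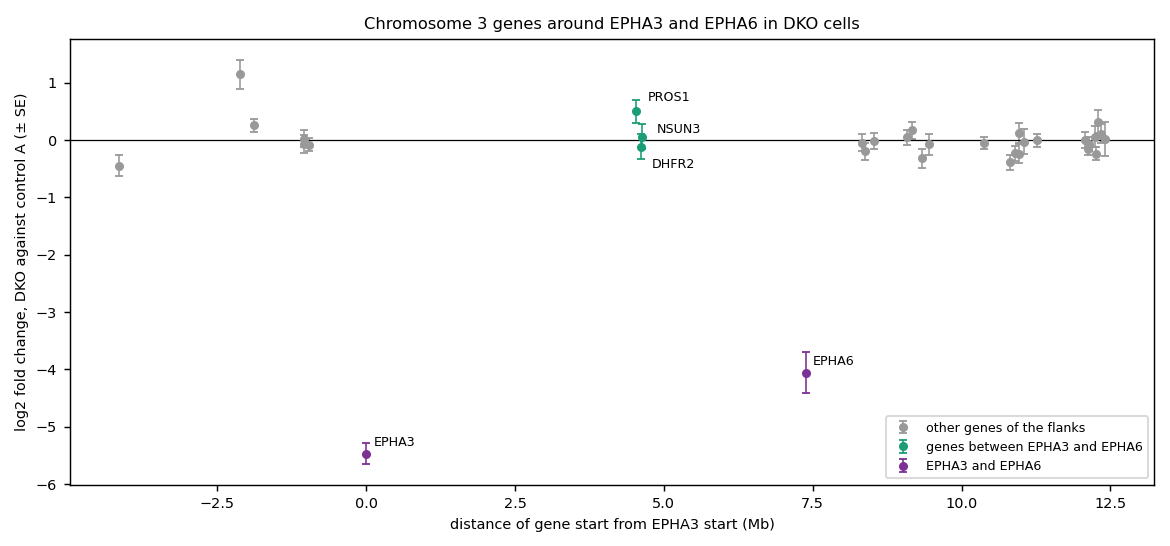
Log2 fold change with SE in DKO against control A (y axis) of tested genes on chromosome 3, by the distance of their start from that of EPHA3 in Mb (x axis). EPHA3 at -5.47 and EPHA6 at -4.06 stand below the 3 plotted genes between them, which lie between -0.11 and 0.50, and below the grey genes of the flanks.

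Genes that start within 500 kb of the other members were counted as well. Of those tested, 8.96% passed in clone 3.3, 12.3% in clone 1.14, 5.71% in SCC4KO, 4.48% in DKO against control A and 10.3% in DKO against clone 3.3, against the shares of all genes given above.

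Of the ligands, EFNA5 was lower in every knockout group than in its controls, EFNB1 was lower in the groups without SCC4, and no ephrin rose past the threshold in a comparison with controls. EFNB1, a transmembrane ligand of EphB receptors and the most abundant ephrin, held 263.6, 212.2 and 202.9 CPM in control A and 225.9, 230.8 and 258.1 CPM in clone 3.3. It held 133.8, 114.3 and 112.2 CPM in SCC4KO and 125.1, 113.3 and 128.4 CPM in DKO. The groups without SCC4 lay below all other libraries. The fall was 1.89-fold in SCC4KO (log2 fold change -0.92, SE 0.146, adjusted p 0.002408) and 1.95-fold from clone 3.3 to DKO (log2 fold change -0.96, SE 0.11, adjusted p 1.517e-05). The difference of the 2 steps was -0.04 (SE 0.176, adjusted p 0.9212). Control B and clone 1.14 lay between 200.4 and 231.4 CPM.

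EFNA5, a lipid-anchored ligand that binds EPHA3, EPHA5 and EPHA7 among others, held 34.3, 48.7 and 50.5 CPM in control A, 26.1, 25.2 and 20.8 CPM in clone 3.3, 19.9, 19.7 and 27.3 CPM in SCC4KO and 25.8, 28.4 and 27.5 CPM in DKO. In set B it held 44.8, 42.9 and 43.7 CPM in the controls and 32.04, 29.4 and 29.1 CPM in clone 1.14. Each knockout library lay below every control library of its set. The log2 fold change was -0.90 (SE 0.167, adjusted p 0.00228) in clone 3.3, -0.55 (SE 0.065, adjusted p 0.001231) in clone 1.14, -0.995 (SE 0.192, adjusted p 0.00784) in SCC4KO and -0.71 (SE 0.151, adjusted p 0.01529) in DKO. The DKO call was lost without replicate 2 of control A or replicate 1 of DKO (adjusted p 0.09168 and 0.1049). DKO and clone 3.3 overlapped (0.18, SE 0.128, adjusted p 0.4601), and the difference of SCC4 loss was 1.18 (SE 0.232, adjusted p 0.003291).

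EFNA1, the main ligand of EPHA2, fell by 0.81 (SE 0.171, adjusted p 0.006522) on the log2 scale in clone 3.3, from 8.35 to 9.84 CPM in control A to 4.94 to 5.73 CPM. It also passed in clone 1.14 (-0.48, adjusted p 0.03725) and in DKO (-0.52, adjusted p 0.04393). The clone 1.14 call was lost without any 1 of 5 libraries, all but replicate 3 of control B (adjusted p 0.07125 to 0.1166), and with DESeq2 (0.1116). The DKO call was lost without replicate 2 of control A or any DKO replicate (adjusted p 0.1203 to 0.2271), with DESeq2 (0.1017) and with at least 10 counts in every sample (0.05684). EFNA4 was lower in clone 1.14 (-0.39, adjusted p 0.02201), a call lost without replicate 1 of control B or replicate 1 or 3 of clone 1.14 (adjusted p 0.06886 to 0.09028), with DESeq2 (0.1055) and with 1 fit over all samples (0.09818). A read-through gene that joins EFNA4 and EFNA3 is counted too, so the reads of these neighbours are uncertain. EFNA2, EFNA3, EFNB2 and EFNB3 did not pass in any comparison.

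Of the 8 ephrins, 2 fell in clone 3.3 (8.07% of all tested genes passed there in either direction), 3 in clone 1.14 (20.1%), 2 in SCC4KO (9.49%), 3 in DKO against control A (7.95%) and 1 in DKO against clone 3.3 (10.6%). Their median log2 fold change was -0.08, -0.23, -0.01, -0.40 and -0.12 in these comparisons. Between the controls of the sets 0 of 8 passed by edgeR and by DESeq2, and 2 had an unadjusted p under 0.05.

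**Figure D4:**
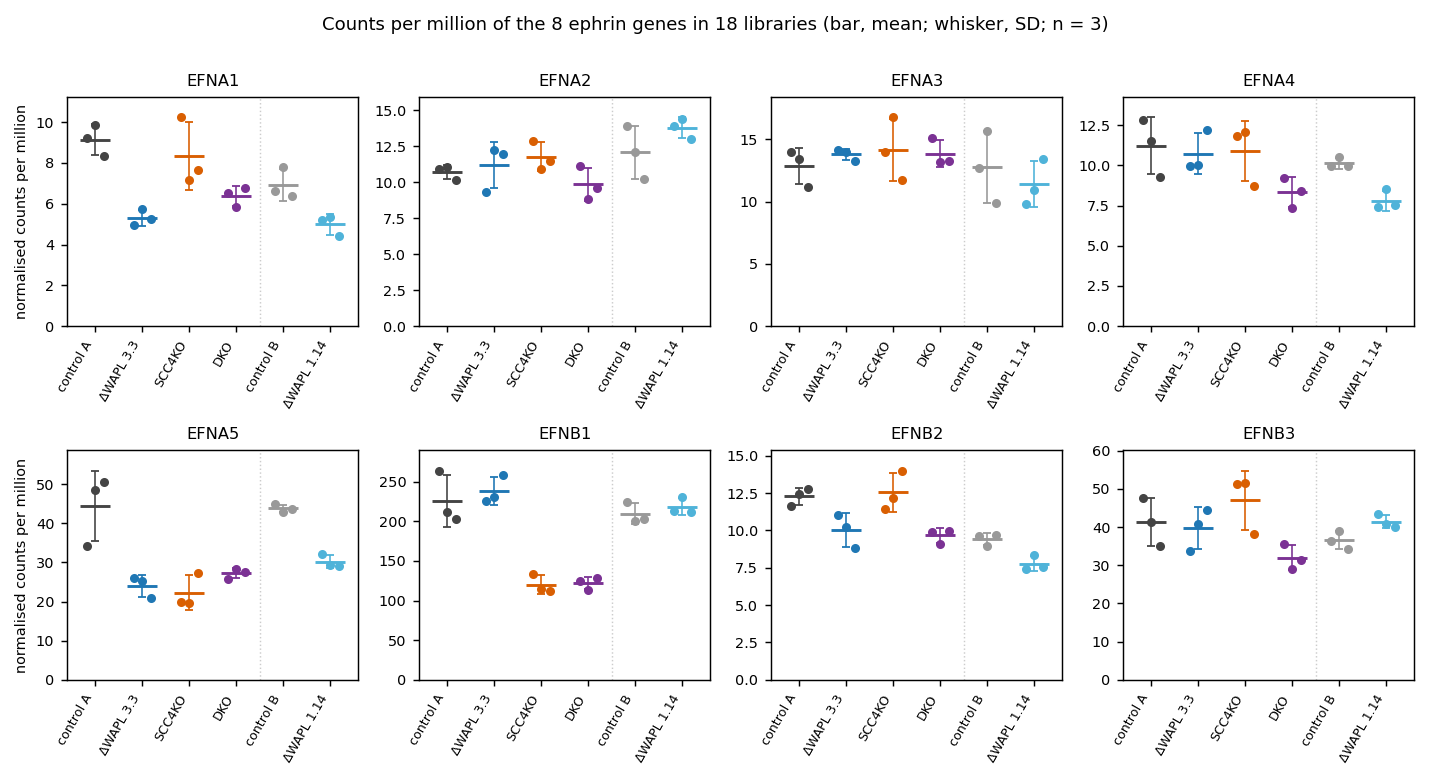
Normalised counts in CPM (y axis, linear, each panel from 0) of the 8 ephrin genes in each library. Points are replicates, bars are means and whiskers are SD. EFNB1 lies between 112.2 and 133.8 CPM in SCC4KO and DKO and above 200 CPM in every other library, and EFNA5 is lower in each knockout group than in its controls.

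Forward signalling runs through adaptors, kinases and exchange factors, for which a list of 36 genes was used. In clone 3.3, 1 of 32 tested rose and 3 fell, beside 8.07% of all genes past the threshold. In clone 1.14, 0 of 32 rose and 8 fell, beside 20.1% of all genes (1099 higher and 1437 lower). In SCC4KO 2 of 31 rose and 3 fell (9.49% of all genes), in DKO against control A 2 of 32 rose and 3 fell (7.95%), and in DKO against clone 3.3 4 of 31 rose and 2 fell (10.6%). The median log2 fold change of the list lay between -0.07 and 0.03 in these comparisons, beside -0.01 to 0.00 over all genes.

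EFS, an adaptor that Src kinases phosphorylate, was lower in all 4 knockout groups than in their controls. It held 2.98 to 3.28 CPM in control A, 0.424 to 0.597 in clone 3.3, 0 to 0.275 in SCC4KO and 0.0569 to 0.170 in DKO. In set B it held 3.66 to 4.30 CPM in the controls and 0.119 to 0.303 in clone 1.14. From summed reads the level was 6.5-fold lower in clone 3.3 (95% counting interval 4.21 to 10.5), 18.6-fold in clone 1.14 (10.2 to 37.9), 21.0-fold in SCC4KO (9.45 to 58.2) and 27.2-fold in DKO (12.2 to 75.2), with adjusted p-values of 7.012e-06, 4.689e-05, 0.0001567 and 8.359e-06 by edgeR.

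The Rac exchange factor TIAM1 moved in opposite directions with WAPL loss alone and with the loss of both genes. It held 1.67 to 1.95 CPM in control A, 0.141 to 0.399 in clone 3.3 and 3.02 to 4.61 in DKO. TIAM1 fell in clone 3.3 (log2 fold change -2.55, adjusted p 0.0001533) and rose in DKO (1.07, adjusted p 0.01036). In clone 1.14 the 4 summed reads against 327 in control B put it at 0.0111 times the control level (95% counting interval 0.00301 to 0.0287, adjusted p 5.17e-05). Control B was itself higher than control A (1.93, adjusted p 0.003784). VAV3, an exchange factor that activated Eph receptors recruit, had 0.799, 0.848 and 0.796 CPM in the clone 3.3 libraries and 2.73 to 4.18 CPM in DKO, against 0 to 0.179 CPM in control A. It was 7.85-fold higher in clone 3.3 (95% counting interval 3.1 to 25.5, adjusted p 0.003239) and 32.1-fold higher in DKO (13.5 to 100, adjusted p 6.246e-05). ARHGEF15, an exchange factor that acts with Eph receptors on RhoA, had no read in clone 1.14 and 65 in control B, at least 23.7-fold lower when 3 reads over the group are taken as the floor (adjusted p 0.001467). It had no read in clone 3.3 either, where low counts left it untested. SCC4KO held 1, 1 and 0 reads and DKO 0, 1 and 0, against 10, 6 and 9 in control A.

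ABL1, a kinase that in this leukaemia line is also part of the BCR-ABL1 fusion, whose reads are not counted apart, held 36.6 to 42.2 CPM in SCC4KO and 15.4 to 18.3 CPM in control A (log2 fold change 1.27, adjusted p 0.000282). It was lower in both ΔWAPL clones, at 7.56 to 8.19 CPM in clone 3.3 (-1.08, adjusted p 0.0003599) and at 6.48 to 7.86 CPM in clone 1.14 against 10.1 to 13.2 CPM in control B (-0.725, adjusted p 0.00665). KALRN, an exchange factor of dendritic spines, was higher in SCC4KO (0.91, adjusted p 0.00688). CHN1, the Rac GTPase-activating protein α-chimaerin that acts below EPHA4, fell in both lines without SCC4. It held 49.3 to 58.4 CPM in SCC4KO and 59.5 to 64.1 in DKO against 99.7 to 116.4 in control A (log2 fold changes -0.995 and -0.831, adjusted p 0.0008194 and 0.0009699). INPPL1, a lipid phosphatase that binds EPHA2, held 102.6 to 112.9 CPM in DKO and 178.1 to 215.4 in control A (log2 fold change -0.83, adjusted p 0.001596).

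Reverse signalling and receptor cleavage were followed by a list of 11 genes, of which 10 were found in the files. MMP2, a metalloproteinase, rose in all 4 knockout groups. It held 0.585 to 1.49 CPM in control A, 4.74 to 6.22 in clone 3.3, 6.27 to 8.78 in SCC4KO and 2.21 to 2.96 in DKO, with log2 fold changes of 2.20, 2.73 and 1.19 (adjusted p 5.359e-05, 0.0001425 and 0.0284). In clone 1.14 it held 9.46 to 11.3 CPM against 2.03 to 2.45 in control B (2.20, adjusted p 4.599e-05). It fell from clone 3.3 to DKO (-1.03, adjusted p 0.001264). SDCBP, a PDZ protein that binds ephrin-Bs, rose in clone 1.14 (0.55, adjusted p 0.001587) along with TNIK (0.41, adjusted p 0.008054). The other 7 genes of the list, ADAM10 among them, did not pass the threshold in any of the 5 comparisons. Of the 10 tested, 1 passed in clone 3.3 (8.07% of all genes passed) and 1 in SCC4KO (9.49%). In DKO 1 passed against control A (7.95%) and 1 against clone 3.3 (10.6%), and in clone 1.14 3 passed (20.1%).

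The genes whose log2 CPM followed EPHA3 most closely over the 18 libraries, by Pearson's r among 11563 genes, were CNRIP1 (r = 0.972), GTSF1 (0.938), THSD7A (0.932), TMEM200A (0.931) and DACH2 (0.916). All 5 were lowest in DKO. Those nearest to EPHA5 were DDX25 (0.916), GALNT10 (0.913), SCUBE2 (0.908), LRRC27 (0.888) and H2BC5 (0.887), and all 5 were highest in SCC4KO. The 18 points are 6 groups of 3 replicates, and the genes of a library share its depth, so these values describe a likeness and are not tested.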

How the data were processed

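Polyadenylated RNA of 18 HAP1 samples was sequenced as strand-specific libraries. The authors aligned reads to hg19 with TopHat2 (2.0.9 in the submitters' processing notes) and deposited raw HTSeq counts per gene, without normalization. The annotation used for counting is not given in the sources used here. Symbols and positions came from GENCODE on GRCh37, which matched 19637 of 20329 identifiers (96.6%). Lines that name no gene (20.3 to 22.6% of all reads) were left out. Reads on genes totalled 10007646 to 20711127 a library (median 16177867).

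Groups came from the labels. The set of the knockouts came from the run number in the deposited files. Members and gene lists were chosen with earlier results of these data known. Named genes were all Eph receptors, ephrins and targeted genes and, per signalling list and comparison, up to 2 largest rises and 2 largest falls past the threshold. TNIK was named after its values were seen.

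Counts were tested with edgeR 4.0.16 (quasi-likelihood test, TMM, filterByExpr, R 4.3.3) on the groups compared, with Benjamini-Hochberg adjusted p-values at 0.05. SE was taken as the size of the log2 fold change divided by √F. CPM are TMM-normalized over 18 samples, and log2 CPM have a prior count of 2. Counting intervals are exact 95% intervals of summed reads. On simulated counts the 5 pairwise fits found 92 to 98% of 2-fold changes with 3.88 to 7.11% false calls, and the test between clones found 74% of 2-fold changes. The simulation gave every gene the same relative spread between replicates and changed only genes with enough reads. Its rates therefore need not hold for these libraries or for genes with few reads. No 2 replicates were alike (chi-square per degree of freedom 1.61 to 51.99). Same-numbered samples deviated together in SCC4KO and control A (r = 0.676, 0.116 and 0.615, mean of other pairs -0.234), so their numbers were taken as pairs from the data, and no other comparison had every pair above 0.1. Alternatives were DESeq2 1.42.0, its size factors, 2 filters, 1 fit over all samples, the replicate block and leaving out each replicate. The result of 1 gene on chromosome 3 is not reported here.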

Additional observations from a re-analysis of the deposited data

Results flagged for a closer look

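The effect of SCC4 loss was set side by side in control cells (SCC4KO against control A) and in clone 3.3 (DKO against clone 3.3), and the difference was tested as an interaction over the 12 libraries of set A. It passed the threshold for 3 of the 8 tested receptors, 2 of the 3 remaining receptor genes that could be tested and 1 of the 8 ephrins, beside 11.3% of all 12817 genes. On the log2 scale the effect in clone 3.3 minus that in control cells was 1.238 for EPHA7 (adjusted p 0.006112), -1.901 for EPHB1 (0.0004569), -0.61 for EPHB2 (0.03079), -5.341 for EPHA6 (2.644e-07), -3.754 for EPHA8 (0.0007075) and 1.18 for EFNA5 (0.003291), each by edgeR's quasi-likelihood test. The call of EPHB2 was lost without any of 9 of the 12 libraries (adjusted p 0.05673 to 0.08738) and under a replicate block (0.05021). EPHA7 fell in both settings and by less in clone 3.3, whereas EPHB1 fell in clone 3.3 and stood at 0.13 in control cells. EPHA8 passed the filter only where SCC4KO or clone 3.3, its highest groups, was included, so its p-value is no independent support.

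EPHA3 and EPHA5 moved in opposite directions in the 2 settings, and that difference was not tested, since their levels were part of their choice. EPHA3 stood at 0.589 in SCC4KO and at -3.741 in DKO against clone 3.3. EPHA5 stood at 4.326 in SCC4KO and at -1.087 in DKO against clone 3.3. Every library of the first group lay above, and every library of the second below, the libraries it was compared with. Each genotype is a single clone, so genotype and clone cannot be told apart in any of these differences. Groups of 3 were too small for a search for samples that stand apart.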

How the results depend on the processing

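No direction was reversed past its error in any alternative. EPHA3 kept its sign in each of the alternatives in the 5 comparisons of knockouts, with a value between -5.57 and -5.40 in DKO against control A, and EPHA5 in SCC4KO lay between 4.13 and 4.47. Another scaling moved the receptor levels by -2.03 to 1.07%. Of 145 tested fold changes of receptors and ephrins, 116 kept their side of the threshold in every alternative. Where counts moved, the cause was not tested. With 1 fit over all samples, the genes past the threshold went from 1008 to 1753 in clone 3.3, from 1186 to 2556 in SCC4KO and from 80 to 408 between the controls, and the receptors from 2 to 4 in clone 3.3 and from 3 to 5 in DKO against control A. With DESeq2, the ephrins in clone 1.14 went from 3 to 1 and the genes between the controls from 80 to 168. Without a filter the latter were 127, and with at least 10 counts in every sample the receptors in SCC4KO went from 2 to 1 and the genes that differ between the clones from 339 to 211.

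With a replicate block in SCC4KO, where the pairs were taken from the data and not from labels, genes went from 1186 to 5754 of 12503 and receptors from 2 to 4. Elsewhere the samples share only a number. The block gave 1 receptor in place of 2 in clone 3.3, 162 genes in place of 80 between the controls, 767 in clone 3.3, 3030 in clone 1.14, 944 in DKO against control A and 1816 in DKO against clone 3.3. It also ended the calls of EPHB6 and EPHA6 in clone 3.3 and EFNA1 in DKO. The best match was with the own number for all 3 numbers in SCC4KO only.

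Leaving out 1 library gave 1 to 4 receptors in clone 3.3, 1 to 2 in SCC4KO and 0 to 1 between the controls. Ephrins ran from 1 to 3 in clone 1.14, 1 to 3 in DKO against control A and 1 to 2 in DKO against clone 3.3. Genes ran from 1415 (without replicate 1 of clone 1.14) to 4820 (without replicate 3 of control B) in clone 1.14, also 1523 without replicate 1 of control B and 1473 without replicate 3 of clone 1.14. They ran from 662 to 2317 in SCC4KO (without replicates 2 and 1 of control A), from 586 (without replicate 1 of DKO) to 1552 (without replicate 1 of control A) in DKO against control A, also 634 without replicate 2 of control A, from 861 (without replicate 2 of clone 3.3) to 1805 in DKO against clone 3.3, and from 218 (without replicate 1 of clone 1.14) to 372 for the difference between the clones. Between the controls they ran from 0 to 107, with 9 without replicate 1 and 0 without replicate 2 of control A and 22 without replicate 1 of control B. EPHA5 between the controls ran from -0.56 (without replicate 3 of control B) to 0.37, and its difference between the clones from 1.36 (without replicate 3 of control B) to 2.53 (without replicate 1 of clone 1.14). Depth limits EPHA5, EPHA6, EPHA8 and EPHA10, whose groups hold few reads.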
